A study of Rattus norvegicus with 8 samples.

Results

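Serotonin reaches the hippocampus through fibers of the raphe nuclei and acts there through a family of receptors that differ in what they do to the cell. Htr1a, Htr1b, Htr5a and Htr5b couple to inhibitory G proteins, Htr2a and Htr2c to the Gq pathway that releases calcium, and Htr4, Htr6 and Htr7 to the stimulatory pathway that raises cAMP, while Htr3a forms a cation channel. Htr1a is a major brake on hippocampal principal cells, and Htr2c is best known for its very high level in the choroid plexus. Htr5b is a functional gene in rodents, where it is known from the habenula and from CA1.

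These 10 receptors were followed in the dentate gyrus (DG) of rats after status epilepticus (SE), with and without estradiol (E2). They were taken as the non-control spots whose gene name equals the symbol of the receptor, which gave 32 of 43379 spots, 14 probes and 10 of 35250 gene names. All 8 rats were adult female Sprague-Dawley rats of 150 to 200 g, ovariectomized 1 week before hormone treatment, and all 8 underwent SE induced by kainic acid. According to the records this was 16 mg/kg, ended after 5 h by pentobarbital, whereas the study's methods describe another dose and diazepam, place all hormone injections before SE and give conflicting times of tissue collection. The COS group (n = 4) received oil. The CES group (n = 4) received 4 doses of 2 μg of estradiol at intervals of 24 h, 2 of them before SE according to the records. No rat without SE was analysed here, so that every difference below is between estradiol and oil after SE. The receptors were chosen by family, with their detection and their CES minus COS differences in these data already known, so that the differences below are given as a description.

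Each channel of a 2-colour array held 1 rat, with replicates 1 and 3 of each group in Cy3 and replicates 2 and 4 in Cy5. The 4 arrays lay on a single slide and each held rats of only 1 group. Spots counted as valid with a foreground of 2 or more times the local background, and a level is the background-subtracted signal relative to the median of the valid spots of the channel, on the log2 scale. Valid spots numbered 32381 to 38553 in the COS rats and 30690 to 35352 in the CES rats, and no spot was saturated. The markers of dentate granule cells were not all detected. Of the 7 on the array, 3 were well above background in all rats. Pdzd2 was so in 3 COS and 4 CES rats and Dsp in 3 COS and 2 CES rats, while Prox1 and Lct were so in none. Whether the probes of Prox1 and Lct can report their genes was not tested.

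The probes that the results turn on are given here because they decide what each receptor's value can mean. Positions are those of the files on rn4. The probes of Htr1a (chr2:36435726-36435785, + strand) and Htr1b (chr8:86700094-86700153, - strand) lie at the end of the coding sequence, and the capitals mark the longest run they share, 7 bases.

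Htr1a: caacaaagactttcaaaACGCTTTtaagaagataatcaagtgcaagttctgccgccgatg

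Htr1b: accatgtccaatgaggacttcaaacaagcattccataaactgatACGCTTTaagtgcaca

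Over the 86 pairs of probes of different receptors, the longest shared run was 9 bases and the median was 6. Htr5b has 1 probe (chr13:33545417-33545476, - strand), of which the first 30 bases are printed because the largest difference of the family rests on it.

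Htr5b: acctccacaaggcaatgattctcagtttag

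Htr2c has 3 probes, and 2 of these overlap by 45 bases on opposite strands, the sense probe at chrX:31013361-31013420 (- strand) and the antisense probe at chrX:31013346-31013405 (+ strand). A stretch of 30 bases of the overlap is shown for each, with the same 10 positions in capitals.

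Htr2c sense: CATGGAGTTCctaaagcactagcaataagt

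Htr2c antisense: acttattgctagtgctttagGAACTCCATG

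Htr7 has an upstream probe in the coding sequence (chr1:240145435-240145494, - strand), shown whole, and a downstream probe (chr1:240135108-240135167, - strand), shown by its first 30 bases.

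Htr7 upstream: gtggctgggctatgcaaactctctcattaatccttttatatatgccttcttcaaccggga

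Htr7 downstream: gcagaaagggttcctttgtggatagtatcc

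Detection came first, as the number of receptors with at least 1 spot that the scanner software marked as well above background. This number was 4, 6, 5 and 6 of 10 in COS replicates 1 to 4 and 6, 8, 6 and 6 in CES replicates 1 to 4. Over all gene names the share well above background was 42.7% to 58.3% in the COS rats and 44.0% to 62.5% in the CES rats, and in each array the Cy5 rat had the higher share. The channel that showed the most receptors, CES replicate 2, also had the highest share of all gene names.

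Htr2a, Htr2c, Htr3a and Htr7 were well above background in all 8 rats, and Htr4 in none. Htr5a and Htr6 were so only in CES replicate 2. Htr1a was detected in 1 of 4 COS and in 4 of 4 CES rats, Htr5b in 2 of 4 and 4 of 4, and Htr1b in 2 of 4 and 0 of 4. Of the 10 spots of Htr1a, none was well above background in COS replicates 1, 2 and 4 and 1 in COS replicate 3, a spot also marked as an outlier, against 10, 10, 8 and 10 spots in the CES rats. The 2 COS rats that showed Htr5b and Htr1b were the same, replicates 2 and 4, both labeled with Cy5.

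**Figure D1:**
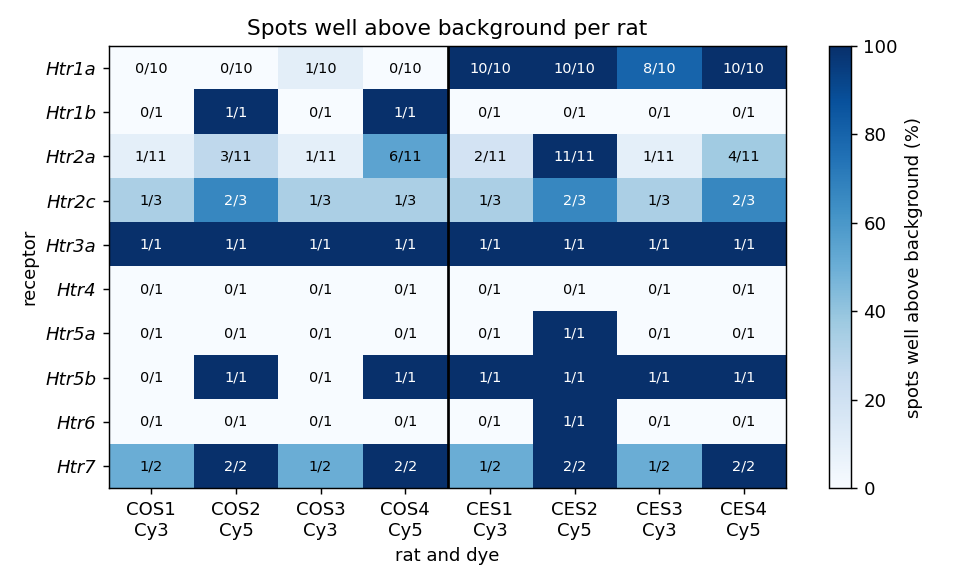
Spots of each receptor that were well above background in each rat, as a count of its spots and, by the shade, as a percent. The columns are the 4 COS and the 4 CES rats with their dye, and the row of Htr1a goes from 0 or 1 of 10 spots in COS to 8 or 10 of 10 in CES.

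For the comparison of CES with COS, 21372 genes had a spot valid in all 8 rats, and 8 of the 10 receptors were among them. The difference was fitted by limma with terms for group and dye and a random effect of array, and p-values were adjusted by Benjamini-Hochberg over all 21372 genes. Of the receptors, 2 passed an adjusted p of 0.05 as higher in CES (Htr5b and Htr1a), where 5.79% of all genes did, and 1 as lower (Htr1b), where 28.3% did, together 34.1% of all genes. The groups did not overlap for 1 receptor that was higher, Htr5b (1.61% of all genes), and for none that was lower (19.8%; 21.4% in either direction). The median difference of the 8 receptors was 0.50, beside -0.25 for all genes, and 7 of the 8 lay above the median of all genes. The choice of the receptors was made with this contrast known, so that these shares describe them and no more. RNA of a whole tissue was measured, in which fewer cells of a type and less RNA per cell cannot be told apart.

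**Figure D2:**
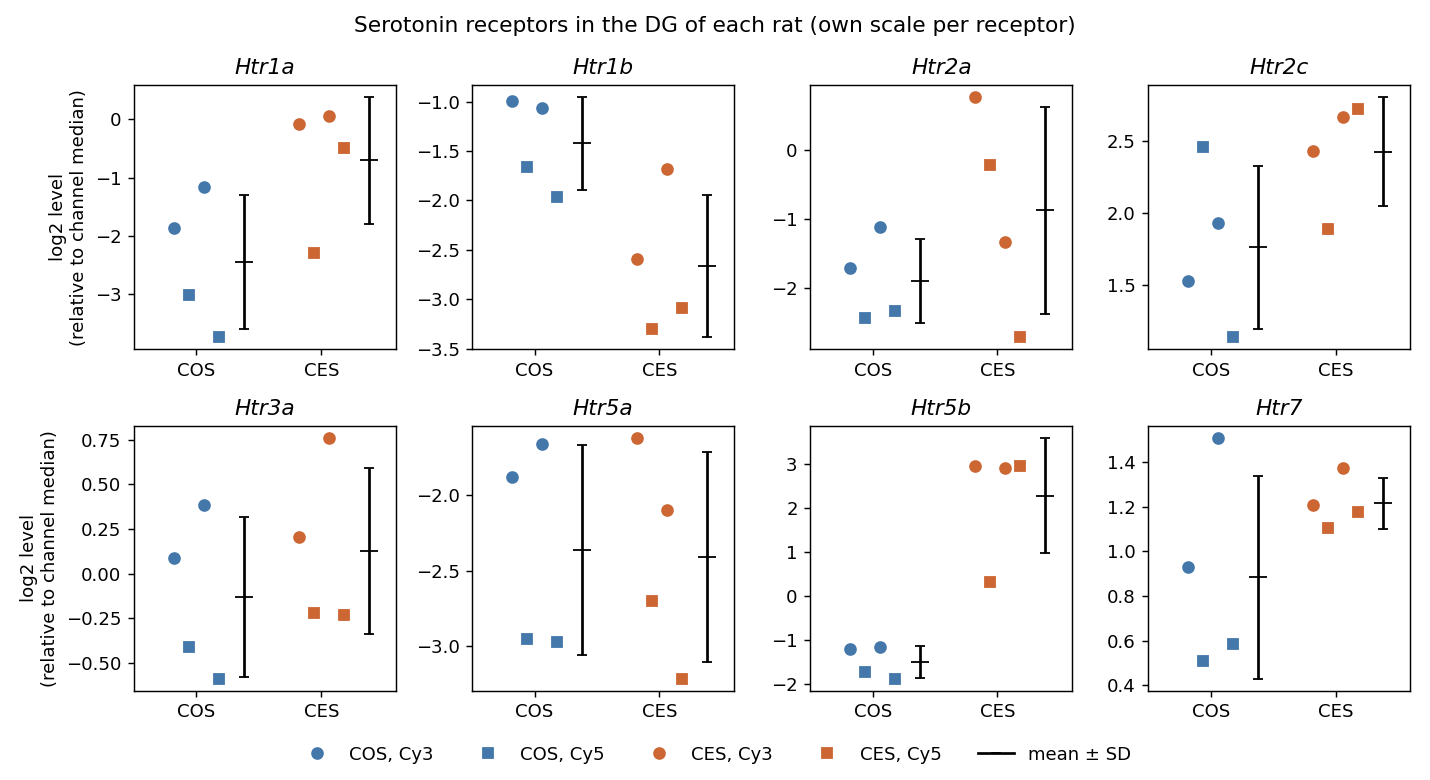
Log2 level, relative to the median of the channel, of each of the 8 quantified receptors in each rat, with circles for Cy3, squares for Cy5, and the mean ± SD of each group; every receptor has its own scale. Htr5b is higher in each CES rat than in any COS rat, with CES replicate 2 (0.32) below the other CES rats, while the groups overlap for the other receptors.

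Htr5b, a receptor that couples to inhibitory G proteins, had the largest difference among the receptors. Its log2 level was -1.20, -1.72, -1.17 and -1.88 in COS replicates 1 to 4 and 2.95, 0.32, 2.91 and 2.95 in CES replicates 1 to 4. Each CES rat lay above every COS rat, with CES replicate 2 far below the other CES rats. The fitted difference was 3.77 ± 0.45 (SE, n = 4 and 4; limma, adjusted p = 0.00312), with a 95% interval of 2.76 to 4.79. As a fold this is 13.7, but only 2 of 4 COS rats were well above background. The size of the fold therefore depends on how background is handled, and with normexp background correction the difference was 2.61 (limma, adjusted p = 0.00219). Without CES replicate 2 the difference under the scaling used here was 4.37 (limma, adjusted p = 5.46e-07). Within the Cy3 rats the difference was 4.11 and within the Cy5 rats 3.43, the latter with an adjusted p of 0.343 (limma). After loess within and Aquantile between arrays it was 2.78 (adjusted p = 0.0150).

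Htr1a, the classical inhibitory receptor of hippocampal principal cells, was also higher in CES. Its levels were -1.87, -3.02, -1.17 and -3.74 in COS replicates 1 to 4 and -0.08, -2.30, 0.05 and -0.49 in CES replicates 1 to 4. The groups overlapped through CES replicate 2, which lay below 2 of the COS rats. That rat was, even so, above both Cy5 rats of COS. The difference was 1.75 ± 0.37 (SE, n = 4 and 4; limma, adjusted p = 0.00778), and without CES replicate 2 it was 2.06 (adjusted p = 0.000634). No fold is given, because the COS rats lay at or near background: 1 of 4 COS rats and 4 of 4 CES rats had an Htr1a signal higher than 95% of negative control spots. With outlier spots left out it was 1.77 (adjusted p = 0.00577), and with normexp background correction it was 0.64 and did not pass (adjusted p = 0.497).

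A further probe stands outside the gene names that define the receptors. Its accession, J05276, is one that the files also list for the Htr1a probe, and it lies 405 bases further along on the same strand (chr2:36436131-36436190). The longest run it shares with the Htr1a probe is 6 bases, and its first 30 bases are printed to show that it is a separate sequence.

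J05276: tcaaaatcccaattcttcacgatggaattt

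Its levels were -1.34, -2.11, -1.03 and -2.98 in COS and 0.99, -1.12, 1.55 and 0.98 in CES replicates 1 to 4, with CES replicate 2 again the lowest of its group. All 4 CES rats and 1 of 4 COS rats showed it well above background. Its difference of 2.46 ± 0.40 (SE; limma, adjusted p = 0.00417) had the direction of the Htr1a probe, in the same rats. It passed the test under 23 of 26 alternatives, with a difference of 1.37 to 3.69.

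Markers of several cell types also differed between the groups, where 5.79% of all genes were called higher and 28.3% lower. Of 5 quantified markers of CA1, the neighboring pyramidal cell field, 4 were called higher in CES by limma, and under each of the 4 other scalings the count was also 4. Pou3f1 had the largest difference (2.23; limma, adjusted p = 0.00341), and Mpped1 and Wfs1 did not overlap between the groups either. The summed linear level of the 5 CA1 markers was 11.2 to 17.3 in the COS rats and 20.3 to 39.9 in the CES rats. The lowest CES rat was again replicate 2. Of 5 quantified markers of dentate granule cells, 3 were called lower (C1ql2, Dsp and Trpc6), with a summed level of 14.5 to 26.0 in COS and 10.5 to 14.9 in CES. After loess and Aquantile normalization or scaling over spots valid in all rats, 0 of these 5 were called lower by limma. Quantile normalization gave 2 as lower, and the deposited log2 values gave 1. The median difference of these 5 was -0.89 under the scaling used here and -0.50 to -0.36 under the 4 others. Of 7 quantified markers of CA3 and CA2, 3 were called higher by limma, Amigo2 (0.95, adjusted p = 0.00751), Nptx1 (0.86, adjusted p = 0.0143) and Cpne4 (0.66, adjusted p = 0.0458), while their summed level overlapped (304 to 468 in COS, 321 to 434 in CES). Of 7 astrocyte markers, Aldh1l1 (1.23, adjusted p = 0.00651) and Gja1 (1.27, adjusted p = 0.0340) were called higher, each with CES replicate 2 the lowest of CES, and S100b lower (-2.22, adjusted p = 0.0478), a call that none of the 4 other scalings gave. The summed level of the astrocyte markers was 181 to 198 in COS and 155 to 233 in CES. Markers of the medial habenula, another place known for Htr5b, were quantified for 2 genes, and 0 of them were called. The part of these cell types in the differences of Htr5b and Htr1a was not tested.

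**Figure D3:**
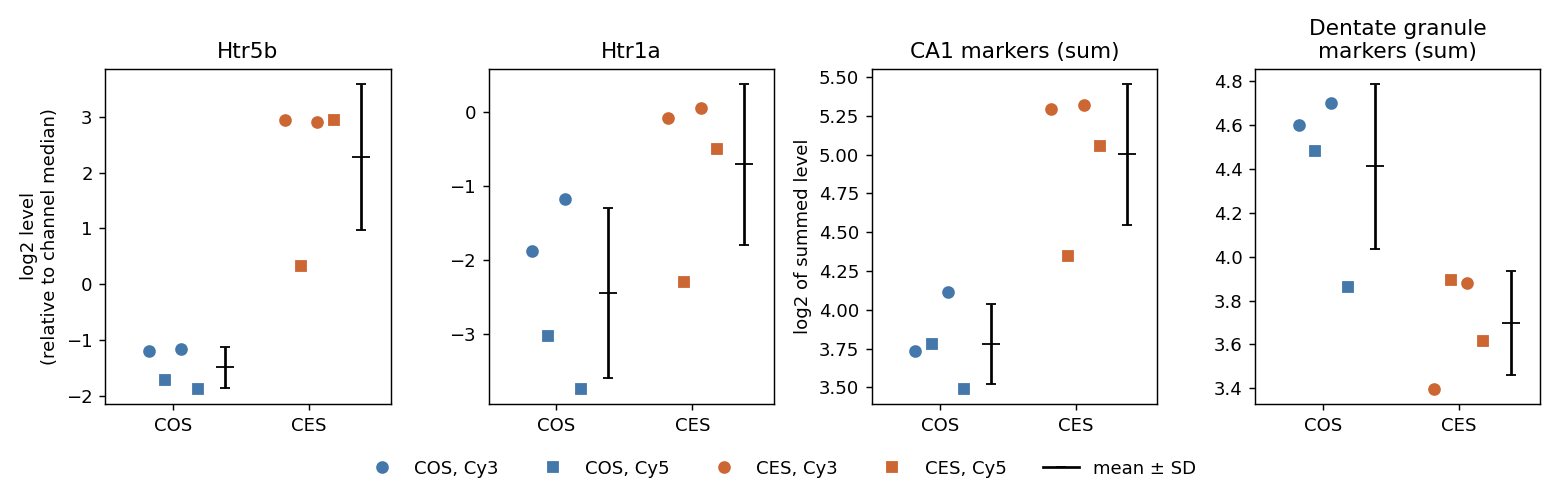
Log2 level of Htr5b and Htr1a, and log2 of the summed level of the markers of CA1 and of dentate granule cells, in each rat, with the mean ± SD of each group. In the first 3 panels CES replicate 2 is the lowest CES rat, and for the CA1 markers (20.3 before the log) it still lies above every COS rat.

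By the root mean square difference of the centered log2 levels over the 8 rats, the genes most like Htr5b among 21364 genes outside the receptors were Btbd17 (0.68), Cldn10 (0.72), Hes5 (0.72), Nat8f5 (0.72) and J05276 (0.76). Cldn10, which encodes a claudin of tight junctions, was at 0.09, -0.65, -0.86 and -1.80 in COS and at 2.85, -0.62, 2.84 and 2.28 in CES replicates 1 to 4. These genes were selected on all 8 rats, CES replicate 2 included, so that their low level in that rat follows from the selection.

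Htr1b, the receptor that reduces transmitter release from axon terminals, was the only receptor called lower in CES. Its levels were -0.996, -1.67, -1.07 and -1.96 in COS replicates 1 to 4 and -2.59, -3.30, -1.68 and -3.09 in CES replicates 1 to 4. The groups overlapped through CES replicate 3, although within each dye every CES rat was below both COS rats. The difference was -1.24 ± 0.22 (SE, n = 4 and 4; limma, adjusted p = 0.00482). Because no CES rat was well above background, the difference gives no fold. After loess and Aquantile normalization Htr1b differed by -0.28 ± 0.08 (SE; limma, adjusted p = 0.0350). All 4 COS rats entered this fit, although Htr1b was detected in only 2 of them. In the normalization with normexp it did not pass (-0.44; adjusted p = 0.651).

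Htr2a, the Gq-coupled receptor of cortical excitatory cells, showed how a single spot can set the value of a gene. Its levels were -1.71, -2.43, -1.12 and -2.33 in COS and 0.76, -0.22, -1.33 and -2.71 in CES replicates 1 to 4. Both high values belong to CES replicates 1 and 2, which share an array. On that array 1 of the 10 spots of the replicated probe read 3.88 and 2.97, and the scanner software marked it as an outlier in both channels. With all spots the difference was 1.02 ± 0.55 (SE; limma, adjusted p = 0.174), and it passed without CES replicate 3 (1.67, adjusted p = 0.0217) or CES replicate 4 (1.77, adjusted p = 0.00862). It was smaller without CES replicate 1 (0.64, adjusted p = 0.423) or CES replicate 2 (0.53, adjusted p = 0.387). Without the spots marked as outliers it was -0.14 ± 0.18 (adjusted p = 0.567), and for the second probe it was 0.00 ± 0.18 (adjusted p = 0.993).

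**Figure D4:**
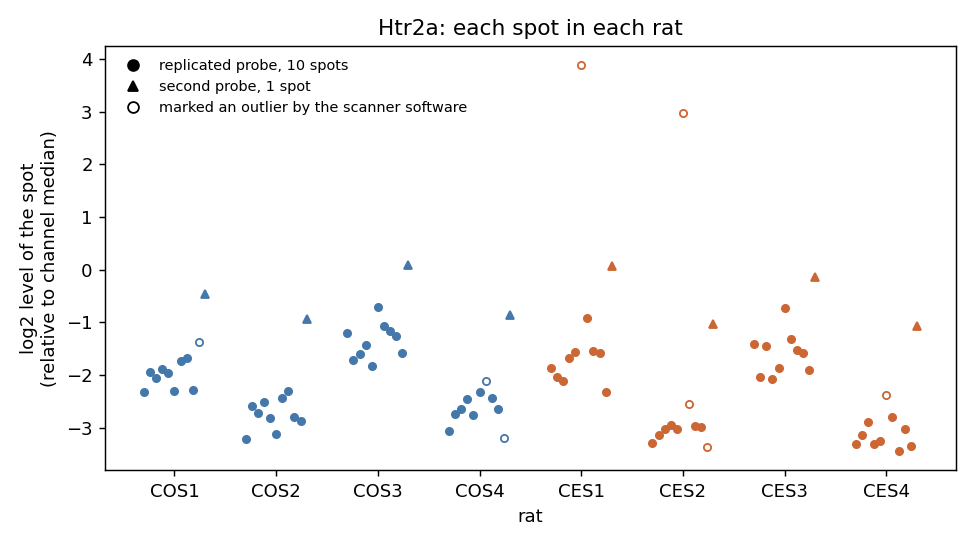
Log2 level of each of the 11 spots of Htr2a in each rat, with circles for the 10 spots of the replicated probe, triangles for the second probe and open symbols for spots marked as outliers. The open circles at 3.88 and 2.97 in CES replicates 1 and 2 are the same spot of 1 array, and the other spots of those rats lie in the range of the other arrays.

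Htr2c, the other Gq-coupled receptor, was at 1.53, 2.45, 1.93 and 1.14 in COS and at 2.43, 1.89, 2.67 and 2.72 in CES replicates 1 to 4. The groups overlapped through COS replicate 2, the highest of its group, and CES replicate 2, the lowest. The difference was 0.66 ± 0.30 (SE; limma, adjusted p = 0.111), and it passed without COS replicate 2 (0.95, adjusted p = 0.0267) or CES replicate 2 (0.86, adjusted p = 0.0341). It was smaller without COS replicate 4 (0.43, adjusted p = 0.340) or CES replicate 4 (0.48, adjusted p = 0.163). The markers of the choroid plexus had a summed level of 757 in COS replicate 2 and of 33.2 to 71.0 in the other COS rats, and of 91.6, 241, 48.2 and 256 in CES replicates 1 to 4. Of its 8 quantified markers, 0 were called by limma between the groups. The part of the choroid plexus in the levels of Htr2c was not tested.

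The probes of Htr2c did not give the same picture. The sense probe printed above was well above background in 8 of 8 rats, with a difference of 0.70 ± 0.30 (limma on single probes, of which 34.5% were called; adjusted p = 0.0953). The antisense probe, which holds the reverse complement of the same stretch, was well above background in no rat and had no value in the comparison. The remaining probe, at chrX:31015679-31015738, passed that mark in 1 COS rat and 2 CES rats, with a difference of -0.44 ± 0.30 (adjusted p = 0.284). For Htr2c the genes with the most similar pattern were Rsph9 (root mean square difference 0.16), TC585395 (0.17), Tmem59l (0.18), Sstr2 (0.20) and Ctxn1 (0.22).

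Htr3a, the channel-forming receptor known from a class of interneurons, was at 0.09, -0.41, 0.39 and -0.59 in COS and at 0.20, -0.22, 0.76 and -0.23 in CES replicates 1 to 4. Htr7, which raises cAMP, was at 0.93, 0.51, 1.51 and 0.59 in COS and at 1.21, 1.11, 1.37 and 1.17 in CES. The groups overlapped for both receptors, and for Htr3a the Cy3 rats were the higher within each group. The difference was 0.26 ± 0.18 for Htr3a (SE; limma, adjusted p = 0.280; 95% interval -0.13 to 0.65) and 0.33 ± 0.19 for Htr7 (adjusted p = 0.203; 95% interval -0.09 to 0.76). Leaving out 1 rat moved Htr3a most without CES replicate 3 (0.14, adjusted p = 0.477) and Htr7 most without COS replicate 3 (0.50, adjusted p = 0.105; limma).

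Both of these calls depended on the scaling. The median of all genes was -0.25 under the scaling used here and 0.04 after loess and Aquantile normalization, where 15.5% of genes were called higher and 10.4% lower. Under the latter Htr3a was 0.42 ± 0.10 (adjusted p = 0.0244) and Htr7 0.55 ± 0.12 (adjusted p = 0.0190), and both also passed under 3 further scalings. Htr5b and Htr1a kept their call under the same 4. For Htr7 the downstream probe, well above background in all rats, had a difference of 0.35 ± 0.19 (limma on single probes, adjusted p = 0.183). The upstream coding probe, so only in the 4 Cy5 rats, had 0.04 ± 0.17 (adjusted p = 0.873).

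**Figure D5:**
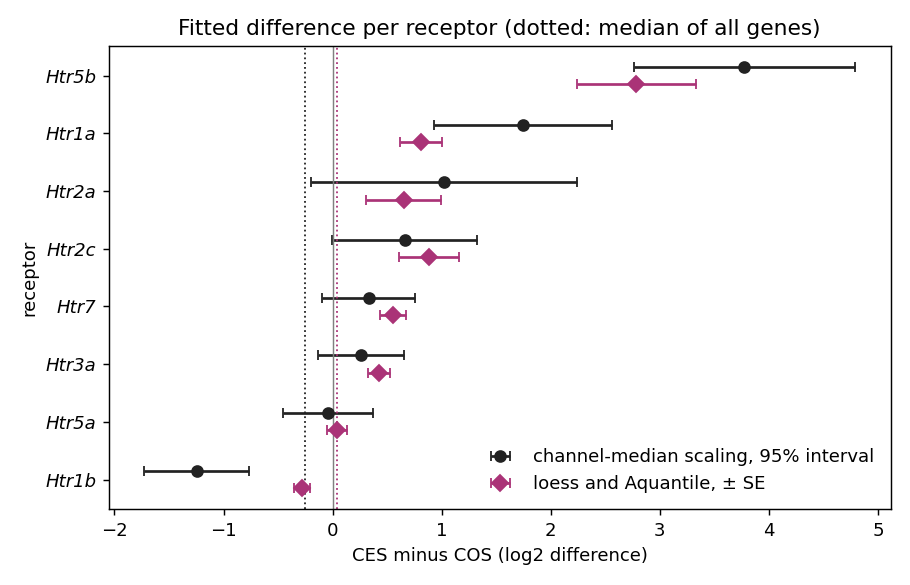
Fitted CES minus COS difference of the 8 quantified receptors on the log2 scale, under channel-median scaling with its 95% interval and after loess and Aquantile normalization with its SE; dotted lines are the medians of all genes, -0.25 and 0.04. Htr5b and Htr1a lie to the right and Htr1b to the left of 0 under both, with smaller differences after loess and Aquantile.

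Htr5a, the paralog of Htr5b, was at or near background in most rats, so that its values cannot show whether it shared the pattern of Htr5b. Its levels were -1.88, -2.96, -1.66 and -2.97 in COS and -1.62, -2.70, -2.10 and -3.22 in CES replicates 1 to 4, and the difference was -0.04 ± 0.18 (SE; limma, adjusted p = 0.874; 95% interval -0.46 to 0.37). Only CES replicate 2 was well above background. The difference of Htr5a had the opposite sign under 9 of 25 alternatives. Htr6 was also well above background only in CES replicate 2 and Htr4 in no rat, and neither had a spot valid in all rats, so that no difference was fitted.

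Of the other serotonin receptors on the array (Htr1d, Htr1f, Htr2b and Htr3b), only Htr1d was quantified, with a difference of 0.24 ± 0.54 (SE; limma, adjusted p = 0.756). Around the receptors a list of 60 genes of serotonin synthesis, transport, breakdown and signaling had 59 on the array, 49 of them quantified, and 5 were called higher and 9 lower in CES, where 5.79% and 28.3% of all genes were. Its median difference was 0.02, beside -0.25 for all genes.

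Among the genes that make, carry and break down serotonin, 7 of 12 were quantified, with 1 called higher and 2 lower. Ddc, the decarboxylase of serotonin and dopamine synthesis, was at -0.68, -1.79, -0.64 and -1.38 in COS and at 1.70, -0.31, 1.63 and 1.62 in CES replicates 1 to 4. Each CES rat was above every COS rat, with replicate 2 again the lowest of CES. The difference was 2.28 ± 0.34 (SE; limma, adjusted p = 0.00390) and was called under each of the 4 other scalings. Tph2, the neuronal enzyme of the rate-limiting step, was lower (-0.84; limma, adjusted p = 0.0472), as was Maoa, which breaks serotonin down (-0.72, adjusted p = 0.0353), and neither was called under any of the 4. Tph2 was well above background in only 3 COS and 2 CES rats, and its groups overlapped. Maob was at 0.04 (adjusted p = 0.892), and the transporter Slc6a4 was not quantified, detected in 0 COS rats and 1 CES rat.

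Of the effectors of inhibitory coupling, all 8 were quantified. Kcnj6, a subunit of the potassium channel that these receptors open, was higher by 1.24 ± 0.24 (SE; limma, adjusted p = 0.00576). The inhibitory G protein subunits Gnai2 (-0.78, adjusted p = 0.0115) and Gnai3 (-0.86, adjusted p = 0.00972) were lower. Of the 9 quantified effectors of the Gq pathway, 3 were called higher by limma, among them Itpr1, the calcium release channel (0.95, adjusted p = 0.0118), and the phospholipase Plcb1 (0.85, adjusted p = 0.0121). Plcb3, a phospholipase of the same family, was lower (-1.02, adjusted p = 0.0136). Kcnj6, Itpr1 and Plcb1 were called higher under the 4 other scalings too, while Gnai2 and Plcb3 were called under none of them and Gnai3 under 3.

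Of the effectors of stimulatory coupling, 11 of 12 were quantified and 1 was called, Gnas, the stimulatory G protein subunit (-0.51; limma, adjusted p = 0.0454). Of the proteins that bind or regulate the receptors, 13 were quantified and 3 were called lower: the caveolin Cav1 (-0.99, adjusted p = 0.00474), the sorting nexin Snx27 (-0.77, adjusted p = 0.00879) and S100a10 (-2.31, adjusted p = 0.0193), which is known to bind Htr1b and Htr4. S100a10 was at 7.63, 7.78, 7.93 and 7.63 in COS and at 3.58, 7.59, 5.66 and 4.91 in CES replicates 1 to 4. For this gene CES replicate 2 lay next to the COS rats and the other CES rats well below. The fall of Cav1 was called under the 4 other scalings, that of Snx27 under 2, and those of S100a10 and Gnas under none. The difference of S100a10 was -2.10 to -1.91 under these scalings and that of Gnas -0.26 to -0.11.

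Promoters of 250 bases before to 50 after the start, from RefSeq on GRCr8, were found for 6 of the 10 receptors (Htr1b, Htr2c, Htr5a, Htr5b, Htr6 and Htr7). On both strands none held the palindromic estrogen response element, which 0.0269% of 33469 promoters hold, the AP-1 motif TGACTCA (4.63%) or the CRE motif TGACGTCA (1.83%). The shorter motif GGTCA, which is part of the longer element, occurred in the promoter of Htr5a and in none of the other 5, and 40.5% of all promoters hold it. A match or its absence describes these windows, and nothing follows from it about the factors.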

How the data were processed

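Total RNA of the DG of 8 rats was hybridized to 4 arrays. The sample records give the group, number and dye of each rat. The deposited scanner files hold the foreground and local background intensity of each spot per channel, extracted by the authors with Agilent Feature Extraction 10.7.3.1. A second deposited file holds log2 values and served here only as an alternative. These are the log2 of the background-subtracted signal relative to a channel constant, and the iterative renormalization of the study's methods is not in them.

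A spot was valid when its mean foreground was at least 2 times the background median. The background-subtracted signal was scaled to the median valid spot of its channel. Spots valid in every rat (27642) were then averaged by gene on the linear scale before log2. Of 41012 probes, 17512 took their name from a RefSeq accession and the rest kept that of the files. Spots marked as outliers in at least 1 channel (1593) were retained. The groups were tested with limma 3.58.1 (R 4.3.3), two-sided, with a fixed dye effect and, since arrays are nested in groups, a random array effect by duplicateCorrelation (statmod 1.5.0). P-values were adjusted by Benjamini-Hochberg over all genes, at a threshold of 0.05. On simulated data for this comparison with 21372 genes, it found 89 of 100 genes changed by 2 and 54 of 100 changed by 1 on the log2 scale, with 8 false calls. The simulated noise was independent between rats, without an array effect or a shift of all genes, so these counts do not cover either. In the simulation 21172 genes were unchanged, whereas 34.1% of genes were called in the data. The adjustment depends on that share, so that the counts do not carry over to it. The number of arrays limits the precision. Each replicate is a separate rat, according to the methods of the study.

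The receptors and the lists of genes were chosen with earlier results of these data known. All 10 receptors are named, and of the wider list the called genes with the smallest adjusted p, up to 12, together with Slc6a4, Tph2, Ddc, Maoa and Maob, apart from a result that is not reported here. The patterns most like Htr5b and Htr2c are the 5 nearest genes each. J05276, Gnas and single markers were named after their values were seen, except that J05276 is also among the nearest to Htr5b. Markers of 11 cell types or regions were set beside the receptors. Of these, thalamus had 1 higher and 1 lower of 5, CA3 and CA2 3 higher of 7, interneurons 3 lower of 10, mossy cells 1 lower of 3, astrocytes 2 higher and 1 lower of 7, microglia 1 higher and 3 lower of 6, and oligodendrocytes 0 called of 6 by limma. Beside these counts, 5.79% of all genes were called higher and 28.3% lower, and the lower counts of interneurons and mossy cells lie near that share. Figures were made with matplotlib 3.10.9.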

Additional observations from a re-analysis of the deposited data

Results flagged for a closer look

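The level of Htr5b in CES replicate 2 was 0.32 on the log2 scale, while the other 3 CES rats lay between 2.91 and 2.95. The gap of this rat to the nearest of the others took up 0.985 of the whole range of the group, which is above the 95% critical value of Dixon's test. Of 16 groups of 4 rats looked at over the 8 quantified receptors it was the only such value. Chance passes this critical value in about 1 in 20 single groups, so that passing it in 1 of 16 groups is not unusual by itself. That rate is for the critical value and not for a ratio as high as 0.985, whose chance was not tested. The 16 groups also come from the same 8 rats and are not independent. CES replicate 2 had the lowest CES level of Htr1a and Ddc as well. Its summed level of CA1 markers (20.3) was the lowest of the CES group, and its level of S100a10 (7.59) was the nearest to the COS rats.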

How the results depend on the processing

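Htr5b was called under 24 of 26 alternatives (difference 2.61 to 4.47), Htr1a under 22 of 25 (0.64 to 2.82) and Htr1b under 21 of 24 (-1.48 to -0.28), always with the same sign. Cy5 rats only called none of them, and neither did the methods' t-test once adjusted by Benjamini-Hochberg over all genes. The study instead corrected that test for redundant spots of a gene and added a fold-change cut-off, a rule not applied here. Normexp called only Htr5b. With the replicate number as a block, for which same-numbered rats deviated together (r of 0.21 to 0.34) but not after the dye they share was removed (r of -0.28 to 0.08), no receptor changed its call (Htr5b 3.77, adjusted p = 0.00429 by limma). The records give no shared litter or day for a number.

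Against 2 receptors called higher and 1 lower, the counts were 4 and 1 after loess and Aquantile, quantile normalization and scaling over spots valid in all rats, 4 and 0 in the deposited log2 table (Htr1b not tested), 1 and 0 with normexp, a foreground of 3 times background (Htr1a and Htr1b not tested) or only spots well above background in all rats (there the receptor is Htr2c, and Htr5b, Htr1a and Htr1b were not tested), and 0 and 0 with the methods' t-test or Cy5 rats only. Over all genes that t-test called 0 after adjustment, with 6114 at an unadjusted p under 0.05, where limma called 7292. Cy5 rats only gave 0 genes higher and 2 lower over all genes. Receptors called higher ranged from 2 to 3 when 1 rat was left out, and those called lower stayed at 1. Against 5 wider genes higher and 9 lower, the counts were 1 and 0 with normexp, 18 and 3 after loess and Aquantile, 14 and 2 with quantile normalization, 14 and 1 with scaling over spots valid in all rats, 2 and 3 without the filter, 15 and 3 in the deposited table, and 0 and 0 with the t-test or Cy5 rats only. A foreground of 3 times background gave 4 lower. Leaving out 1 rat gave 2 to 6 higher and 1 to 10 lower, with 2 and 1 without COS replicate 3, 5 lower without COS replicate 1 and 3 lower without CES replicate 1. The cause of these shifts was not tested.

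Htr2a turned to -0.14 without outlier spots and to -0.12 without these and CES replicate 2, the latter chosen after seeing the data, since 1 spot set its value. Htr5a turned to 0.17 with the software's processed signal, 0.042 after loess and Aquantile, 0.25 with quantile normalization, 0.36 with scaling over spots valid in all rats, 0.37 in the deposited table, 0.0061 in Cy5 rats, and 0.01, 0.11 and 0.11 without COS replicate 3, CES replicate 3 and CES replicate 4 (-0.16 to 0.11 over all single rats left out). Signal over background limits Htr4, Htr5a and Htr6, which no COS rat showed well above background.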
